A study of Mus musculus with 12 samples.

Results

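Antigen presentation genes were followed in RAW 264.7, a mouse macrophage cell line from a virus-induced tumour, after transfection with reagents that raise or block miR-223 activity. The group comprised 10 genes: B2m, H2-K1 and H2-D1 of MHC class I, Tap1, Tap2 and Tapbp of peptide loading, and Cd74, Ciita, H2-DMa and H2-Aa of MHC class II. The genes are given by name, and a row of the deposited table was taken as a member if its only gene symbol was one of these. That gave 9 rows for 8 genes, out of 22180 genes with a row of their own and 41345 rows in all. H2-D1 and Cd74 occurred only in rows that list a further gene (H2-Q2 and Mir5107), so they have no value of their own here. Tapbp had a bright and a dim row, which are given side by side. All 8 genes lay above the level required for testing, a mean of log2 2.01 over the arrays.

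Transfections were compared at 48 h: pre-miR-223, a reagent that adds miR-223 activity (4 arrays), anti-miR-223, which inhibits miR-223 (4 arrays), and an unrelated scramble oligonucleotide (4 arrays). All 12 arrays came from the same line, with no other treatment named in the labels. The titles call the arrays biological replicates, but nothing states that they came from separate cultures, so p-values measure the spread between these arrays, which may in part be technical. RAW 264.7 derives from the BALB/c background, whereas the reference sequences used below are those of C57BL/6J, and MHC genes differ between mouse strains. The effect of such allele differences on the array signal was not tested. No row carried Mir223 as its only symbol, so the level of miR-223 itself was not checked here.

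MHC class I molecules carry peptides from the cytosol to the cell surface, where cytotoxic T cells inspect them. Each consists of a heavy chain, such as the product of H2-K1, and the invariant light chain beta-2 microglobulin, encoded by B2m. The peptides are cut by the proteasome, pumped into the endoplasmic reticulum by the transporter formed by Tap1 and Tap2, and loaded with the help of tapasin, the product of Tapbp. MHC class II molecules present peptides from the endocytic route to helper T cells. H2-Aa encodes the alpha chain of one such molecule, H2-DMa encodes a subunit of the DM complex that exchanges the peptide in its groove, and Ciita encodes the co-activator that switches class II genes on. In macrophages both routes are known to be raised by interferon gamma, and class II is low in resting cells.

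The reagents target miR-223, whose mature forms are shown because they define the perturbation; the seed, bases 2 to 8, is in capitals. The sequences are those of RefSeq, build GRCm38.p6, plus strand of the X chromosome, at chrX:96242884-96242905 for the 3p form and chrX:96242842-96242864 for the 5p form. The sequences of the transfected oligonucleotides themselves are not given in the sources used here.
mmu-miR-223-3p: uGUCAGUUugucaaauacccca
mmu-miR-223-5p: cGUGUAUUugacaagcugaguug

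Promoter sequence was found for 6 of the 8 genes in the RefSeq promoter table (GRCm38.p6), which covers 250 bases before and 50 after each gene start. Those of B2m, H2-K1 and H2-Aa are shown. These are the 3 of 6 with a match to an NF-kB site, so they do not stand for the other promoters. Capitals mark matches on either strand to CCAAT, to TGACGT (the core of a cyclic AMP response element), to the core of an interferon-stimulated response element and to an NF-kB site. The B2m promoter lies at chr2:122147437-122147736 on the plus strand, that of H2-K1 at chr17:34000298-34000597 on the minus strand, as 1 of 2 starts listed, and that of H2-Aa at chr17:34287774-34288073 on the minus strand.
B2m: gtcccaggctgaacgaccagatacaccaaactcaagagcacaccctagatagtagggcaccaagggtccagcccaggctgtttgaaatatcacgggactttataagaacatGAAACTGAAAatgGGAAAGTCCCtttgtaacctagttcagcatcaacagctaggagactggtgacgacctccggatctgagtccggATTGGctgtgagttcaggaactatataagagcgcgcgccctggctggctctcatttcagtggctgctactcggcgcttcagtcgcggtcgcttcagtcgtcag
H2-K1: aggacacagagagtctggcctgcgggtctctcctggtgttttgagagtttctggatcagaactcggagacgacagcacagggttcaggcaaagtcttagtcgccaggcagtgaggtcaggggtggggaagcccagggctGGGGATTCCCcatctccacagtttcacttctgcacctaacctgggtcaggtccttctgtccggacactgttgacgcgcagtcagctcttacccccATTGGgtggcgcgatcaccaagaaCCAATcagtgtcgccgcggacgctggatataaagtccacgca
H2-Aa: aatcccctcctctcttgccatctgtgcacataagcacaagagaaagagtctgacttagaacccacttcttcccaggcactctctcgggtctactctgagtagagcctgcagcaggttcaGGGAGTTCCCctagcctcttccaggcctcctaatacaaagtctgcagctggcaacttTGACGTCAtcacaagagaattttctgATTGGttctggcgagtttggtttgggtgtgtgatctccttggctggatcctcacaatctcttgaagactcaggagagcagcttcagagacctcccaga

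A match to the NF-kB site was present in the promoters of B2m, H2-K1 and H2-Aa (3 of 6 members), against 4.79% of the 32851 promoters in the table. The interferon-stimulated element matched in B2m (1 of 6, against 3.44% of promoters), and TGACGT matched in H2-Aa (1 of 6, against 7.51%), where it lies on both strands as the palindrome TGACGTCA. The CCAAT motif matched in all 6, B2m, H2-K1, Tap1, Tapbp, H2-DMa (at 1 of its 2 listed starts) and H2-Aa, against 37.4% of promoters. These matches describe the letters of the reference window only.

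Macrophage markers were present, though Mertk was low, at a mean of log2 2.42. The list mean was log2 7.68 to 8.03 with pre-miR-223, 7.70 to 8.34 with anti-miR-223 and 7.86 to 8.10 with scramble. Of the macrophage markers, 8 of 8 lay above the level required for testing. Of the markers of other cells that present antigen, 5 of 8 dendritic cell genes and 1 of 6 B cell genes did so, and Cd209a (9.11) and Ighm (8.23) were the members of these lists with a mean above log2 4. Cd79a, Cd79b, Ms4a1 and Pax5, which define B cells, were below the level required for testing, as was Zbtb46 of dendritic cells. The B cell list had a mean of 2.93 to 3.08 with pre-miR-223, 2.97 to 3.25 with anti-miR-223 and 2.997 to 3.19 with scramble, and the dendritic cell list of 3.24 to 3.32, 3.08 to 3.38 and 3.25 to 3.47 in the same groups. T cell, neutrophil, fibroblast and epithelial markers passed the level required for testing for 3 of 5, 2 of 5, 2 of 5 and 3 of 4 genes. The means of those that passed were low, between log2 2.02 (Cd4) and 3.52 (Krt8). One array, anti-miR-223 replicate 4, stood apart: 629 of its genes lay over 2-fold from the mean of the 12 arrays, and no other array had more than 37 such genes. Differences with anti-miR-223 that it moved most are therefore also given without it. Over all tested genes, the median difference was -0.05 for pre-miR-223 versus scramble, -0.01 for anti-miR-223 versus scramble and -0.04 for pre-miR-223 versus anti-miR-223, all on the log2 scale.

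No antigen presentation gene passed the test in any comparison. Limma called 0 of 8 members and 0.0% of the 14611 genes tested (0 genes) at an adjusted p under 0.05 in each of the 3 comparisons. At an unadjusted p under 0.05 the counts were 711, 294 and 528 genes for pre-miR-223 versus scramble, anti-miR-223 versus scramble and pre-miR-223 versus anti-miR-223. An ordinary linear model also called 0 genes and found 706, 368 and 530. In these bulk samples a lower signal from fewer cells that express a gene and from less RNA per cell cannot be told apart.

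B2m, the light chain shared by all class I molecules, had log2 signals of 10.84, 11.05, 10.79 and 10.55 on the pre-miR-223 arrays, 10.99, 10.82, 11.16 and 10.77 on the anti-miR-223 arrays, and 11.07, 11.08, 11.02 and 11.08 on the scramble arrays. Scramble arrays lay close together, and 3 of the 4 pre-miR-223 arrays were below all of them, while replicate 2 fell within their range. B2m averaged 10.81 ± 0.20 with pre-miR-223, 10.93 ± 0.18 with anti-miR-223 and 11.06 ± 0.03 with scramble (SD, n = 4 each). The difference between pre-miR-223 and scramble was -0.25 (95% CI -0.51 to 0.00), which did not pass (limma adjusted p = 0.921). Leaving out single arrays moved it between -0.33 (pre-miR-223 replicate 2) and -0.17 (pre-miR-223 replicate 4). For anti-miR-223 versus scramble it was -0.13 (-0.39 to 0.12), moving between -0.20 and -0.08 when replicate 3 or replicate 4 of anti-miR-223 was left out. Between pre-miR-223 and anti-miR-223 the difference was -0.12 (-0.38 to 0.13), or -0.18 without anti-miR-223 replicate 4. It moved between -0.20 and -0.04 when replicate 2 or replicate 4 of pre-miR-223 was left out.

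H2-K1, a class I heavy chain, had log2 signals of 5.37, 5.48, 5.53 and 5.17 with pre-miR-223, 5.36, 5.45, 5.53 and 5.56 with anti-miR-223, and 5.59, 5.57, 5.45 and 5.57 with scramble. The groups overlapped, and the lowest value was again that of pre-miR-223 replicate 4. Group means differed by -0.16 (95% CI -0.38 to 0.06) for pre-miR-223 versus scramble, -0.07 (-0.29 to 0.15) for anti-miR-223 versus scramble and -0.09 (-0.31 to 0.13) for pre-miR-223 versus anti-miR-223. Without pre-miR-223 replicate 4 the first of these was -0.08 and the last -0.01. The anti-miR-223 difference from scramble was -0.03 without its replicate 1 and -0.10 without its replicate 4. Class I heavy chain genes are closely similar in sequence, so signal from related genes in this row cannot be told apart from that of H2-K1.

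Tap1, a subunit of the peptide transporter, had log2 signals of 4.83, 5.04, 4.98 and 4.74 with pre-miR-223, 5.11, 4.88, 5.08 and 5.59 with anti-miR-223, and 5.21, 5.14, 5.07 and 5.01 with scramble. With pre-miR-223, 3 of 4 arrays lay below all scramble arrays, and replicate 4 of anti-miR-223 was the highest of the 12. Its mean was 4.90 ± 0.14 with pre-miR-223, 5.17 ± 0.30 with anti-miR-223 and 5.11 ± 0.09 with scramble (SD, n = 4 each). The log2 contrast was -0.21 (95% CI -0.50 to 0.09) for pre-miR-223 versus scramble and -0.27 (-0.56 to 0.03) for pre-miR-223 versus anti-miR-223. Between pre-miR-223 and anti-miR-223 it was -0.13 (-0.36 to 0.11) without anti-miR-223 replicate 4. In the comparison of anti-miR-223 with scramble, the difference was 0.06 (-0.24 to 0.35) and turned to -0.08 (-0.32 to 0.15) without that array.

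Tap2, the other subunit of the transporter, had log2 signals of 3.30, 3.07, 3.26 and 3.58 with pre-miR-223, 2.99, 3.31, 3.46 and 3.36 with anti-miR-223, and 3.34, 3.07, 3.35 and 3.18 with scramble. Every group spanned much the same range. Group means differed by 0.07 (95% CI -0.21 to 0.35) for pre-miR-223 versus scramble, 0.04 (-0.24 to 0.33) for anti-miR-223 versus scramble and 0.02 (-0.26 to 0.30) for pre-miR-223 versus anti-miR-223. In pre-miR-223 replicate 4, Tap2 stood 0.31 above its 12-array mean while Tap1 stood at -0.32.

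Tapbp, which encodes tapasin, had log2 signals in its bright row of 6.84, 6.88, 6.93 and 6.53 with pre-miR-223, 6.92, 6.81, 6.86 and 6.84 with anti-miR-223, and 6.99, 6.92, 7.01 and 6.82 with scramble. Apart from pre-miR-223 replicate 4 the 12 values lay close together. The log2 contrast was -0.14 (95% CI -0.36 to 0.08) for pre-miR-223 versus scramble, or -0.06 without that array. It was -0.08 (-0.30 to 0.14) for anti-miR-223 versus scramble and -0.07 (-0.29 to 0.16) for pre-miR-223 versus anti-miR-223, which turned to 0.02 without that array and to 0.01 with arrays centred on their median or quantile normalised again.

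The dim Tapbp row had log2 signals of 4.08, 3.87, 4.04 and 3.75 with pre-miR-223, 3.73, 3.82, 3.68 and 3.42 with anti-miR-223, and 3.75, 3.19, 3.59 and 3.44 with scramble. The pre-miR-223 arrays were all above the scramble arrays, though the lowest pre-miR-223 array and the highest scramble array differ only beyond the second decimal. In a fit of every row with 1 symbol (15458 rows), the difference between pre-miR-223 and scramble was 0.44 (95% CI 0.15 to 0.73), with a limma adjusted p of 0.891, so it did not pass. With single arrays left out it lay between 0.34 and 0.53. Of these rows 0.0% passed, 1.41% were higher at an unadjusted p under 0.05, and 0.828% were higher with groups that do not overlap. The log2 difference was 0.17 (-0.12 to 0.46) for anti-miR-223 versus scramble, or 0.07 without scramble replicate 2, and 0.27 (-0.02 to 0.56) for pre-miR-223 versus anti-miR-223. Tapbp lies on the plus strand in RefSeq. Of the genes whose rows have the nearest numbers in the table, 10 on either side, 17 of the 18 with a listed strand were on the plus strand around the bright row, but 15 of 15 were on the minus strand around the dim row. The strand that each row measures is not given in the sources used here, and whether the dim row reports the Tapbp transcript was not tested.

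**Figure D1:**
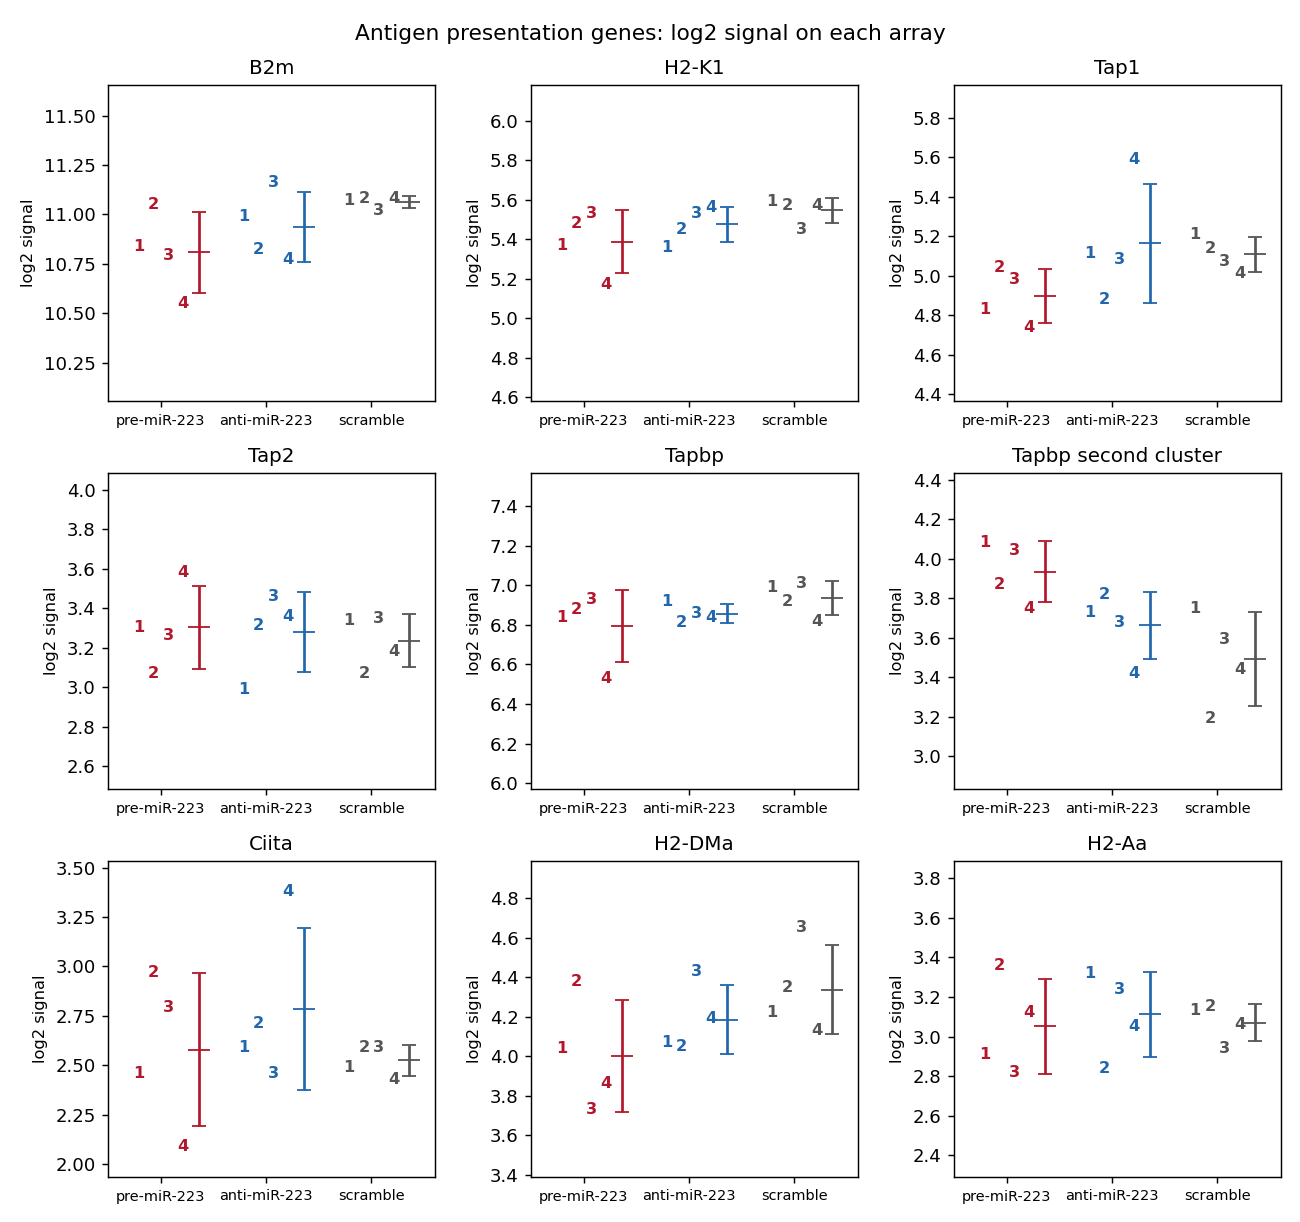
Log2 signal of each array (y axis, each panel spanning 1.6 log2 units) by group (x axis) for the 8 antigen presentation genes and the dim Tapbp row; digits are replicate numbers, and bars are the mean ± SD (n = 4). All groups overlap in every panel, except pre-miR-223 and scramble for the dim Tapbp row, where the pre-miR-223 arrays lie between 3.75 and 4.08 and the scramble arrays between 3.19 and 3.75.

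Ciita, the class II co-activator, had log2 signals of 2.46, 2.97, 2.79 and 2.09 with pre-miR-223, 2.59, 2.71, 2.46 and 3.38 with anti-miR-223, and 2.49, 2.59, 2.59 and 2.43 with scramble. It was close to the lowest level tested, with pre-miR-223 replicate 4 the lowest of the 12 arrays and anti-miR-223 replicate 4 the highest. Group means differed by 0.05 (95% CI -0.38 to 0.49) for pre-miR-223 versus scramble and 0.26 (-0.18 to 0.70) for anti-miR-223 versus scramble. With pre-miR-223 it turned to -0.08 without replicate 2 and to -0.02 without replicate 3, and was 0.21 without replicate 4. With anti-miR-223 it was 0.06 (-0.29 to 0.41) without replicate 4. Pre-miR-223 minus anti-miR-223 gave -0.21 (-0.64 to 0.23) with that array and -0.01 without it.

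H2-DMa, a subunit of the peptide exchanger DM, had log2 signals of 4.04, 4.38, 3.73 and 3.86 with pre-miR-223, 4.07, 4.05, 4.43 and 4.19 with anti-miR-223, and 4.22, 4.35, 4.65 and 4.13 with scramble. Replicates 1, 3 and 4 of pre-miR-223 were below every scramble array, and replicate 2 was above 3 of them. H2-DMa averaged 4.003 ± 0.28 with pre-miR-223, 4.19 ± 0.17 with anti-miR-223 and 4.34 ± 0.23 with scramble (SD, n = 4 each). The difference between pre-miR-223 and scramble, -0.33 (95% CI -0.66 to -0.01), was the largest of the 8 genes (limma adjusted p = 0.921). It ranged from -0.46 without pre-miR-223 replicate 2 to -0.23 without scramble replicate 3. With anti-miR-223 relative to scramble the difference was -0.15 (-0.48 to 0.18), and it was -0.05 when scramble replicate 3 was left out and -0.23 when anti-miR-223 replicate 3 was. Pre-miR-223 minus anti-miR-223 gave -0.18 (-0.51 to 0.14), and it was -0.31 or -0.09 when pre-miR-223 replicate 2 or 3 was left out.

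H2-Aa, the class II alpha chain, had log2 signals of 2.91, 3.36, 2.82 and 3.12 with pre-miR-223, 3.32, 2.84, 3.24 and 3.05 with anti-miR-223, and 3.13, 3.15, 2.94 and 3.06 with scramble. The scramble values lay inside the range of both other groups. The log2 contrast was -0.02 (95% CI -0.31 to 0.27) for pre-miR-223 versus scramble, 0.04 (-0.25 to 0.33) for anti-miR-223 versus scramble and -0.06 (-0.35 to 0.23) for pre-miR-223 versus anti-miR-223. Its direction was not stable to scaling: pre-miR-223 minus scramble was 0.06 with arrays centred on their median and 0.02 with cyclic loess.

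**Figure D2:**
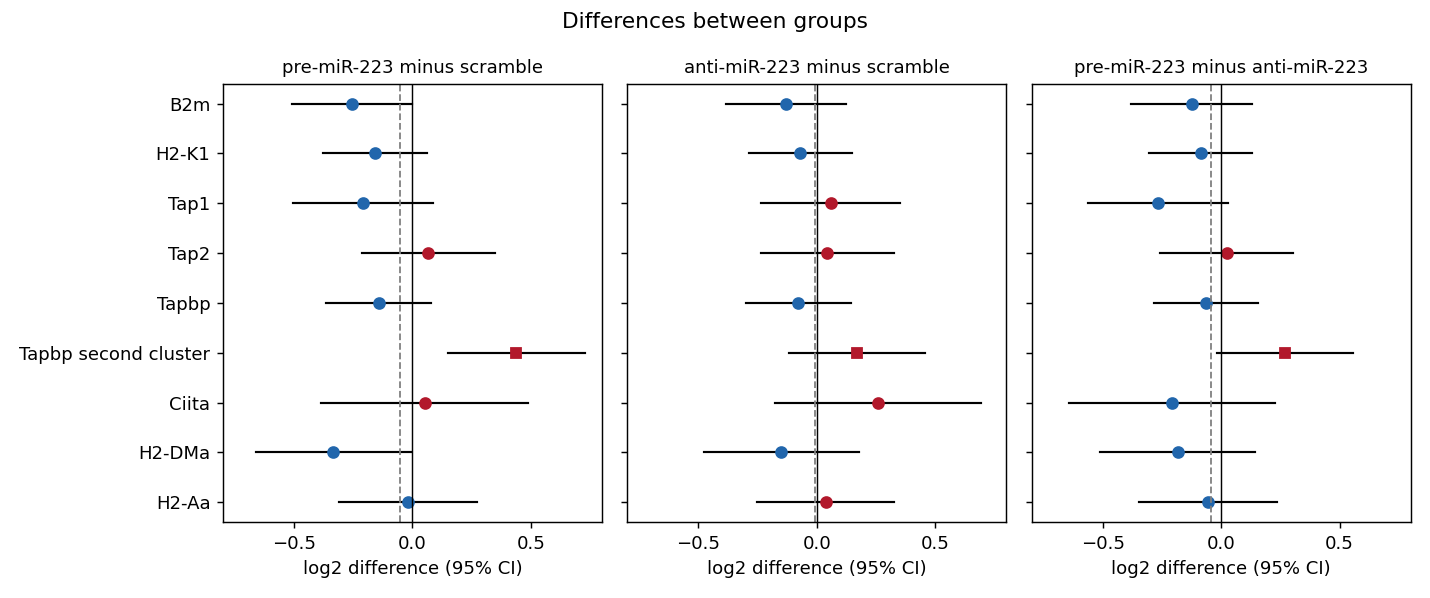
Log2 difference between groups (x axis) with its 95% confidence interval for each gene (y axis) in the 3 comparisons; circles are the rows that stand for the genes, the square is the dim Tapbp row, red is above 0 and blue below, and the dashed line is the median of all tested genes. The dim Tapbp row and H2-DMa have intervals that leave out 0 for pre-miR-223 minus scramble, and no gene passed after adjustment over all genes.

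For pre-miR-223 versus scramble 6 of 8 were lower, where 65.2% of all tested genes were, and the median of the 8 was -0.15 against -0.05 over all genes. Without pre-miR-223 replicate 4 the members' median was -0.07 with 7 of 8 lower, against -0.04 and 62.4% over all genes. Among genes with a mean above log2 4, 5 of 5 members were lower with a median of -0.21, against 79.0% of all such genes with a median of -0.11. At an unadjusted p under 0.05 and a lower signal there was 1 of 8 (H2-DMa), against 3.85% of all genes, while 1.02% of all genes had such a p and a higher signal, where there was no member. Groups overlapped for all 8, and did not for 2.98% of genes. These shares depended on the scaling and the clusters used. With the mean of all clusters of a gene 5 of 8 members were lower, with a median of -0.09, against 64.0% and -0.05 over all genes. With arrays centred on their median 43.0% of all genes and 5 of 8 members were lower, with a members' median of -0.07, and with cyclic loess 49.6% and 5 of 8, with a members' median of -0.04. The confidence interval did not reach a 1.5-fold change for 7 of 8 members (82.8% of all genes), H2-DMa being the exception, or a 2-fold change for 8 of 8 (98.5%).

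For anti-miR-223 versus scramble 4 of 8 members were lower, against 52.5% of all genes, with a median of -0.02 against -0.01. No member had an unadjusted p under 0.05, where 1.35% of genes were lower and 0.664% higher at that level, and groups overlapped for all 8 (1.55% of genes had groups that did not). Without anti-miR-223 replicate 4 the count was 5 of 8 and the median -0.07, against 63.6% and -0.05 over all genes. Without its replicate 3 they were 6 of 8 and -0.05, against 52.0% and -0.01. With the mean of all clusters of a gene they were 3 of 8 and 0.04, against 52.6% and -0.01. For pre-miR-223 versus anti-miR-223, 7 of 8 were lower, against 62.8% of all genes, with a median of -0.11 against -0.04. Without anti-miR-223 replicate 4 it was again 7 of 8, with a median of -0.07, against 52.2% and -0.01 over all genes. That count was also 7 of 8 without pre-miR-223 replicate 4, with a median of -0.06, without pre-miR-223 replicate 2, with -0.18, and without anti-miR-223 replicate 3, with -0.07. No member reached an unadjusted p under 0.05 (2.57% of genes did so lower and 1.05% higher), and groups overlapped for all 8 (1.67% of genes had groups that did not). Centring or cyclic loess gave 5 of 8 lower, with a median of -0.03 in both cases. The interval did not reach a 1.5-fold change for 7 of 8 members in each of these comparisons, Ciita being the exception in both. Over all genes that share was 88.1% for anti-miR-223 versus scramble and 82.9% for pre-miR-223 versus anti-miR-223. The comparisons share arrays, so they do not repeat one another independently.

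In pre-miR-223 replicate 4, B2m, H2-K1, Tap1 and Tapbp stood at -0.38, -0.30, -0.32 and -0.33 relative to their 12-array means, Ciita at -0.54 and H2-DMa at -0.31, while the median of all tested genes stood at -0.08. Replicate 2 of the same group had 0.11, 0.02, -0.01 and 0.02 for the first 4 of these genes. In anti-miR-223 replicate 4, Tap1 stood at 0.53 and Ciita at 0.75 but B2m at -0.17, with a median of 0.08 over all genes. Across the 12 arrays the Pearson correlation was 0.65 between B2m and H2-K1, 0.69 between B2m and Tapbp, 0.68 between H2-K1 and Tapbp, and 0.71 between B2m and H2-DMa. Tap1 correlated with B2m at 0.29, or 0.85 without anti-miR-223 replicate 4. Tap2 had negative correlations with the other class I genes, at -0.48 with B2m and -0.50 with Tapbp, and weaker ones of -0.32 with H2-K1 and -0.18 with Tap1. Bright and dim rows of Tapbp correlated at -0.09. These values describe 12 arrays that share array-wide shifts, and no test was made of them.

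**Figure D3:**
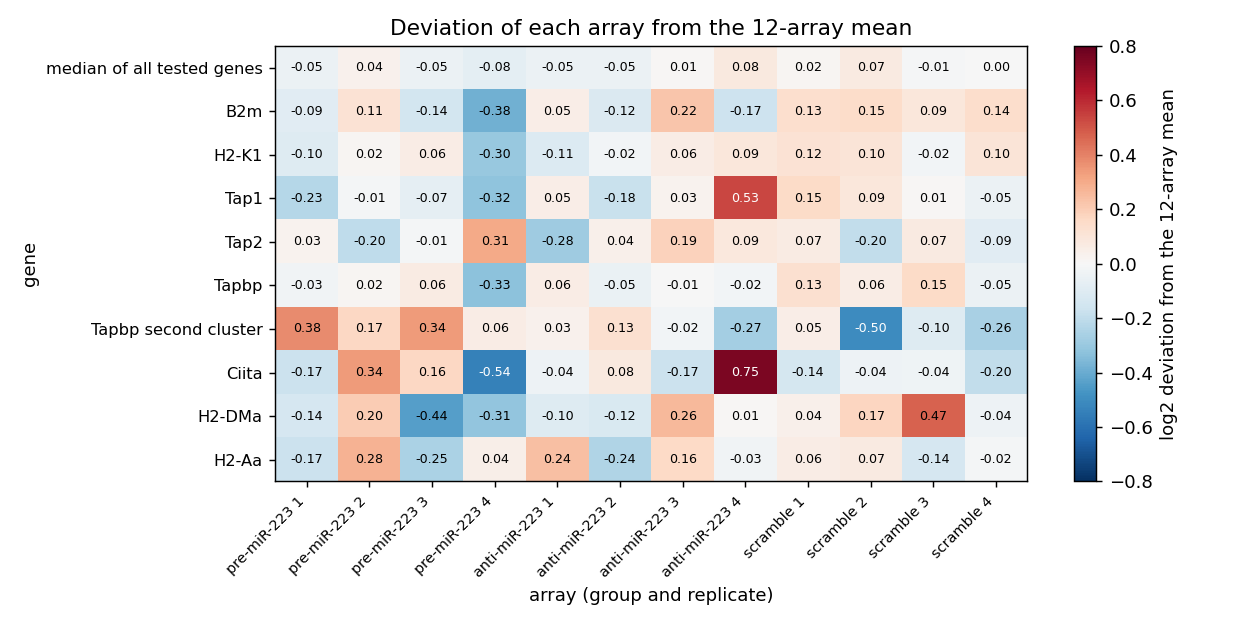
Log2 deviation of each array (x axis, group and replicate) from the 12-array mean for the median of all tested genes, the 8 antigen presentation genes and the dim Tapbp row (y axis); red is above and blue below the mean. Pre-miR-223 replicate 4 is low for B2m, H2-K1, Tap1 and Tapbp, from -0.38 to -0.30, and anti-miR-223 replicate 4 is high for Tap1 (0.53) and Ciita (0.75).

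Genes that follow a profile most closely over the 12 arrays were taken by the highest Pearson correlation. For Tap1 these were Tmed3, a cargo adaptor of vesicles (0.98), Gys1, glycogen synthase (0.97), Pdrg1 (0.96), Sting1, the adaptor of cytosolic DNA sensing (0.96), and Usp18, which removes the ubiquitin-like protein ISG15 (0.96). Tap1 had 180 genes with a correlation over 0.9, or 68 without anti-miR-223 replicate 4. Tmed3 kept 0.97 in that case and Sting1 had 0.89. For H2-K1 they were Zfyve27, Med16, a subunit of the Mediator complex, Pold4, a subunit of DNA polymerase delta, Arnt, a transcription factor subunit, and Minpp1, an inositol phosphatase, between 0.92 and 0.95. For the mean of B2m, H2-K1, Tap1, Tap2 and Tapbp they were Ldlrad4, Mrpl49, Amz2, Arpc2, a subunit of the Arp2/3 complex, and Eef1e1, between 0.92 and 0.93.

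Other genes of the pathway were taken from 7 lists, and limma called none of them in any comparison. Of all tested genes 65.2% were lower for pre-miR-223 versus scramble, 52.5% for anti-miR-223 versus scramble and 62.8% for pre-miR-223 versus anti-miR-223. Among genes with a mean above log2 4 these shares were 79.0%, 58.2% and 72.6%, with medians of -0.11, -0.02 and -0.08. The proteasome list, the enzyme that makes class I peptides, had 9 of 9 members below scramble with pre-miR-223, with a median difference of -0.21 against -0.05 over all genes. With centring it was 9 of 9 with a median of -0.13, and with cyclic loess 8 of 9 with -0.10. Psme1, a subunit of the PA28 activator, averaged 6.82 ± 0.21 with pre-miR-223 and 7.12 ± 0.07 with scramble (SD, n = 4 each), a difference of -0.29 (95% CI -0.57 to -0.02). Psmb8, an immunoproteasome subunit, differed by -0.24 (-0.49 to 0.02). With anti-miR-223 the list had 6 of 9 lower than scramble and a median of -0.01, or 4 of 9 and 0.01 with cyclic loess. Psmb5, the constitutive counterpart of Psmb8, then differed by -0.14 (-0.39 to 0.11) and Psme1 by 0.11 (-0.16 to 0.39). Pre-miR-223 versus anti-miR-223 gave 9 of 9 lower and a median of -0.13, with Psme1 at -0.41 (-0.68 to -0.13) and Psmb8 at -0.23 (-0.49 to 0.02). Leaving out anti-miR-223 replicate 4 gave 8 of 9 and -0.14, and centring or cyclic loess 8 of 9 and -0.05.

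The class I loading partners, chaperones and trimming enzymes of the endoplasmic reticulum, had 6 of 7 below scramble with pre-miR-223, with a median of -0.09, which turned to 0.03 with 3 of 7 lower under cyclic loess and 0.04 with 2 of 7 under repeated quantile normalisation. Tapbpl, a relative of tapasin, differed by -0.12 (95% CI -0.32 to 0.08) and Calr, the chaperone calreticulin, by -0.13 (-0.41 to 0.16). For anti-miR-223 versus scramble the list had 3 of 7 lower and a median of 0.00. Hspa5 was at 0.20 (-0.28 to 0.67) and the chaperone Canx at 0.07 (-0.15 to 0.29). Without anti-miR-223 replicate 4 the list had 6 of 7 lower and a median of -0.09, against 63.6% and -0.05 over all genes. Hspa5 was at -0.11 and Canx at -0.01 without that array. Pre-miR-223 versus anti-miR-223 gave 7 of 7 lower and a median of -0.10, but 3 of 7 and 0.00 without that array and 4 of 7 and -0.01 with cyclic loess. Tapbpl then differed by -0.17 (-0.37 to 0.02) and Hspa5 by -0.26 (-0.74 to 0.22) with all arrays.

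Class I relatives had a row of their own above the required level for 9 of 17 genes. With pre-miR-223 versus scramble 5 of 9 were lower, with a median of -0.13, or 5 of 9 and -0.05 with centring or cyclic loess. H2-Q4 differed by 0.16 (95% CI -0.08 to 0.41) and Fcgrt, the neonatal Fc receptor, by -0.26 (-0.67 to 0.15). With anti-miR-223 versus scramble 4 of 9 were lower and the median was 0.04, or 6 of 9 and -0.13 without anti-miR-223 replicate 4 and 5 of 9 and -0.02 with repeated quantile normalisation. H2-T10 then differed by 0.26 (-0.03 to 0.55) and H2-Q4 by 0.16 (-0.08 to 0.41) with all arrays. Levels of H2-T10 were near the lowest tested, at 2.28 with anti-miR-223 and 2.02 with scramble. Between pre-miR-223 and anti-miR-223, H2-M3 differed by -0.45 (-0.92 to 0.03) and Mr1, which presents vitamin metabolites, by -0.58 (-1.25 to 0.09), with 6 of 9 lower and a median of -0.04, or 4 of 9 and 0.04 with centring. Without anti-miR-223 replicate 4, 4 of 9 were lower and the median was 0.05. For anti-miR-223 versus scramble, Mr1 was at 0.43 with all arrays and -0.01 without that array, and H2-M3 at 0.27 and 0.03.

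Of the other class II chains, H2-Eb2, H2-Oa and H2-Ob were below the required level, and 4 of 7 were tested. H2-Ab1, the beta chain that pairs with the product of H2-Aa, averaged 4.96 ± 0.22 with pre-miR-223, 5.27 ± 0.33 with anti-miR-223 and 5.29 ± 0.09 with scramble (SD, n = 4 each). It differed by -0.33 (95% CI -0.66 to 0.00) for pre-miR-223 versus scramble and by -0.31 (-0.64 to 0.02) for pre-miR-223 versus anti-miR-223. H2-DMb2, a partner chain of the H2-DMa product, differed by 0.11 (-0.13 to 0.36) and 0.19 (-0.06 to 0.44) in these comparisons and by -0.08 (-0.32 to 0.17) for anti-miR-223 versus scramble, where H2-DMb1 differed by 0.10 (-0.18 to 0.37). In each of the 3 comparisons 3 of 4 were lower, with medians of -0.09 for pre-miR-223 versus scramble, -0.04 for anti-miR-223 versus scramble and -0.11 for pre-miR-223 versus anti-miR-223. With cyclic loess pre-miR-223 had 2 of 4 lower in both of its comparisons, with medians of -0.05 versus scramble and -0.07 versus anti-miR-223, and with centring the median versus scramble was -0.01.

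Class II processing genes, the proteases and the reductase of the endocytic route, had 6 of 7 below scramble with pre-miR-223, with a median of -0.16, or 5 of 7 with -0.08 under centring and -0.03 under cyclic loess. Ifi30, the lysosomal thiol reductase, differed by -0.28 (95% CI -0.59 to 0.03) and Ctsl, cathepsin L, by -0.22 (-0.46 to 0.03). With anti-miR-223 relative to scramble 4 of 7 were lower and the median was -0.07, with Ctsd, cathepsin D, at -0.14 (-0.37 to 0.08) and Sppl2a, the protease that clears the invariant chain stub, at -0.09 (-0.28 to 0.11). Leaving out anti-miR-223 replicate 4 gave 7 of 7 and -0.11, against 63.6% and -0.05 over all genes. Sppl2a had 7.68 ± 0.13 with pre-miR-223 and 7.43 ± 0.01 with anti-miR-223 (SD, n = 4 each), a difference of 0.24 (0.05 to 0.44). The groups did not overlap for it, as for 0.698% of all genes in the higher direction. Of the other named list genes, the same held for Tapbpl and Cd40 (lower, pre-miR-223 versus scramble and versus anti-miR-223). It also held for Cd86 (higher, anti-miR-223 versus scramble). Over all genes, in either direction, groups did not overlap for 2.98%, 1.67% and 1.55% in these comparisons. Ctsb, cathepsin B, differed by -0.32 (-0.81 to 0.16) for pre-miR-223 versus anti-miR-223, where 6 of 7 were lower with a median of -0.15. That median was -0.04 without anti-miR-223 replicate 4, and under centring or cyclic loess 4 of 7 were lower with -0.07. For anti-miR-223 versus scramble, Ctsb was at 0.17 with all arrays and -0.12 without anti-miR-223 replicate 4.

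Genes for the transcriptional control of MHC genes, among them Ifngr1 and Ifngr2 (receptor chains for interferon gamma) and Jak1 and Jak2 (kinases that act on its signal), had 14 of 16 below scramble with pre-miR-223, with a median of -0.14, or 11 of 16 and -0.03 with cyclic loess. Nfyc, a subunit of the factor that binds CCAAT, differed by -0.39 (95% CI -0.79 to 0.01) and Spi1, the myeloid factor PU.1, by -0.31 (-0.68 to 0.05). In the comparison of anti-miR-223 with scramble, 10 of 16 were lower, with a median of -0.04. Without anti-miR-223 replicate 4 these were 14 of 16 and -0.13, against 63.6% and -0.05 over all genes. Irf1, an interferon-induced factor, then differed by -0.16 (-0.39 to 0.08) and Nfyc by -0.22 (-0.62 to 0.18) with all arrays. Pre-miR-223 versus anti-miR-223 gave 14 of 16 lower and a median of -0.13, but 9 of 16 and -0.04 without that array and 11 of 16 and -0.06 with cyclic loess. Spi1 differed by -0.35 (-0.71 to 0.01) and Nfya, another subunit of the CCAAT factor, by -0.40 (-0.93 to 0.13), with all arrays. For anti-miR-223 versus scramble, Nfya was at 0.26 with all arrays and -0.08 without anti-miR-223 replicate 4, and Spi1 at 0.04 and -0.10.

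The co-stimulation list covers signals between presenting cells and T cells, both activating and inhibitory (Cd274 and Pdcd1lg2). It had 5 of 8 below scramble with pre-miR-223, with a median of -0.10. With centring these were 5 of 8 and -0.03, and with cyclic loess 4 of 8 and -0.04. Icam1, an adhesion molecule, differed by -0.23 (95% CI -0.60 to 0.13), and Cd40 had the smallest p of the list in all 3 comparisons. Its differences were -0.53 (-0.77 to -0.29) for pre-miR-223 versus scramble, -0.23 (-0.47 to 0.01) for anti-miR-223 versus scramble and -0.30 (-0.54 to -0.06) for pre-miR-223 versus anti-miR-223, at levels near the lowest tested. Cd86, a ligand of CD28, differed by 0.15 (-0.05 to 0.36) for anti-miR-223 versus scramble, where 3 of 8 were lower with a median of 0.05, or 5 of 8 and -0.11 without anti-miR-223 replicate 4. For pre-miR-223 versus anti-miR-223, Cd274, the ligand PD-L1, differed by -0.27 (-0.67 to 0.12), with 6 of 8 lower and a median of -0.22. Without that array the median was -0.04 and Cd274 differed by -0.06 (-0.34 to 0.22).

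**Figure D4:**
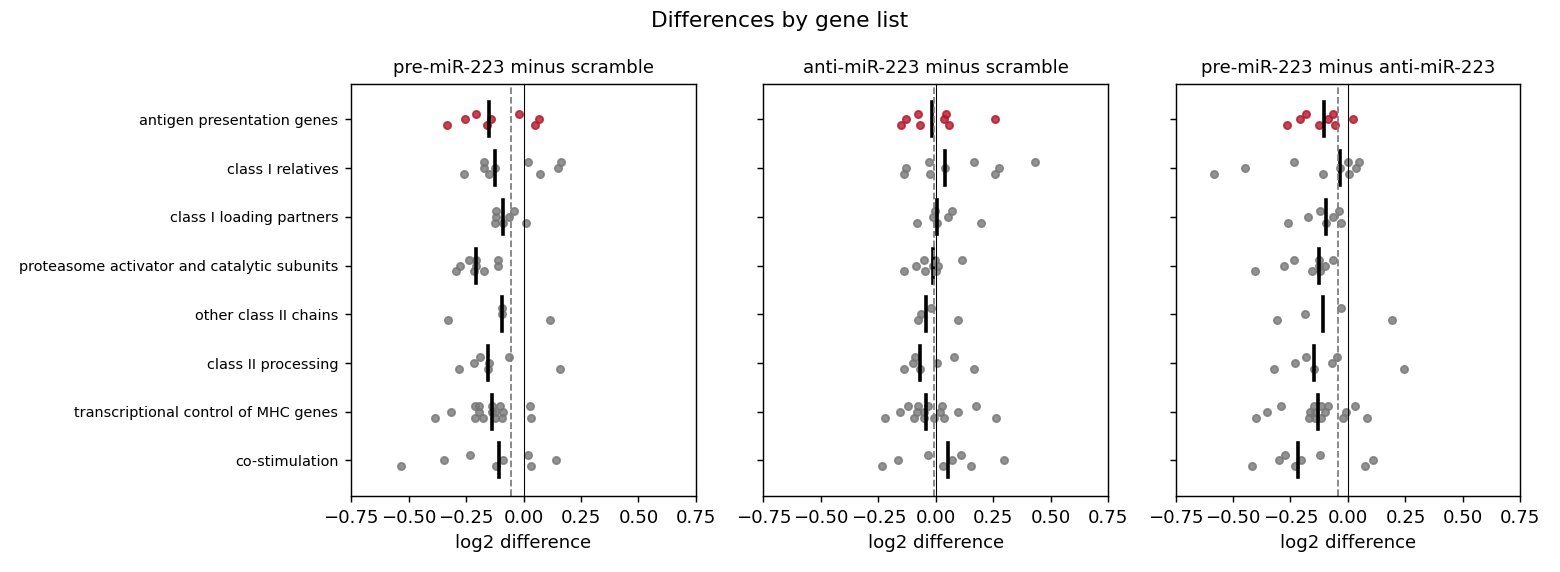
Log2 difference of every tested gene (points, x axis) in the antigen presentation genes (red) and the 7 pathway lists (grey, y axis) for the 3 comparisons; thick black bars are list medians and the dashed line is the median of all tested genes. With pre-miR-223 versus scramble all list medians lie between -0.21 and -0.09, beside -0.15 for the antigen presentation genes and -0.05 for all genes, but with cyclic loess all list medians lie between -0.10 and 0.03, the loading partners above 0, beside -0.04 for the antigen presentation genes and 0.0013 for all genes.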

How the data were processed

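Expression on 12 Affymetrix whole-transcript arrays, 4 per group, was analysed. The authors deposited log2 signals of 41345 transcript clusters; RMA, Partek and Affymetrix Expression Console appear in the submitters' processing notes, with no versions or roles. The base of the logarithm and the genome build are not given in the sources used here; base 2 was taken, as RMA gives it. Array medians lay between log2 2.21 and 2.31, and a difference in total RNA was not tested. Array data have no read depth; precision is set by the number of arrays.

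GEO's platform annotation named genes: 23521 clusters had 1 symbol, 1814 had several and were left out, and 16010 had none. A gene was represented by its brightest cluster and tested if the mean passed percentile 40 of all clusters (log2 2.01), giving 14611 genes. Limma 3.58.1 (R 4.3.3; lmFit, eBayes) fitted 1 model to the 12 arrays with 9 residual degrees of freedom; p-values are 2-sided and Benjamini-Hochberg adjusted over all tested genes. The procedure was tested on simulated data. Same-numbered arrays of different groups did not consistently vary together, which does not exclude pairing, and no block was used in the main fit.

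Members, pathway lists and marker lists were chosen with earlier results of these data known. The genes named are the members, the 2 with the smallest p of each pathway list in each comparison, and the 5 most correlated with Tap1, H2-K1 and the mean of the class I and loading members, apart from predicted genes. Alternatives covered filters, clusters, scaling, moderation, weights, groups fitted, a replicate block and leaving out each array.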

Additional observations from a re-analysis of the deposited data

Results flagged for a closer look

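H2-K1 in scramble replicate 3, at log2 5.45, lay far from the other scramble arrays, which were between 5.57 and 5.59; its gap to the nearest of them was 0.884 of the group's range. This was 1 of 36 groups of 4 arrays examined, and chance gives about 1 in 20. Without that array the H2-K1 difference between anti-miR-223 and scramble was -0.10.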

How the results depend on the processing

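No member passed the test under any alternative run, and 0 genes were called in each. The lowest limma adjusted p of a member was 0.315 with array weights and 0.318 with an array left out. Apart from leaving out arrays, 12 of 279 member results reversed direction, none of them called, and the cause was not tested. The other 267 do not measure stability. Runs that changed only the filter, the moderation, the groups fitted or the block leave the difference between group means as it was. The same holds where every cluster is a row. Only scaling, array weights and, for Tapbp, the mean of all clusters could reverse a direction. The mean of all clusters gave Tapbp 0.15 for pre-miR-223 versus scramble, 0.046 for anti-miR-223 versus scramble and 0.10 for pre-miR-223 versus anti-miR-223. For pre-miR-223 versus scramble, H2-Aa was 0.061 with centring and 0.019 with cyclic loess. Array weights gave Tap1 -0.012 for anti-miR-223 versus scramble. For pre-miR-223 versus anti-miR-223, centring gave H2-Aa 0.021 and Tapbp 0.012, repeated quantile normalisation H2-K1 0.011 and Tapbp 0.012, and cyclic loess H2-K1 0.0021 and Tapbp 0.015.

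With arrays left out in turn, 18 of 324 results reversed. Part of the 324 could not reverse, since an array of the group not compared leaves the difference as it was. The range for pre-miR-223 versus scramble was -0.024 to 0.14 for Tap2, -0.079 to 0.21 for Ciita and -0.12 to 0.058 for H2-Aa. In anti-miR-223 versus scramble it was -0.083 to 0.15 for Tap1, -0.015 to 0.14 for Tap2 and -0.031 to 0.13 for H2-Aa. For pre-miR-223 versus anti-miR-223 it was -0.074 to 0.10 for Tap2, -0.11 to 0.021 for Tapbp and -0.16 to 0.020 for H2-Aa.

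Genes at an unadjusted p under 0.05 for pre-miR-223 versus scramble (711) became 381 above log2 4, 1884 with array weights and 1339 with only these groups fitted. They became 1510 without pre-miR-223 replicate 2, 455 without replicate 3, 314 without replicate 4, 385 without scramble replicate 2, and 1371 when anti-miR-223 replicate 4 was left out. The 294 genes of anti-miR-223 versus scramble became 523 with no filter, 95 above log2 4, 623 with array weights and 978 without anti-miR-223 replicate 4. The 528 genes of pre-miR-223 versus anti-miR-223 became 826 with no filter, 225 above log2 4, 793 with array weights, 338 with only these groups fitted, 1147 without pre-miR-223 replicate 2, 280 without its replicate 4 and 1014 without anti-miR-223 replicate 2. Tap2, Ciita and H2-Aa were not tested above log2 4.

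With the replicate block, 0 genes were called and 547, 248 and 408 had an unadjusted p under 0.05; it changed no call. Correlations of deviations between same-numbered arrays were -0.07 to 0.39 for pre-miR-223 and scramble and -0.46 to 0.13 for anti-miR-223 and scramble. For pre-miR-223 and anti-miR-223 they were -0.50 to 0.13. With 4 such correlations for each pair of groups, this cannot show whether the numbers pair the arrays.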

Other observations

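Some clusters name a member together with another gene and entered none of the main comparisons. Their signal cannot be given to either gene. The cluster listed for Cd74, the invariant chain, and Mir5107 had log2 signals of 8.25, 8.60, 8.18 and 7.93 with pre-miR-223, 8.49, 8.32, 8.90 and 8.94 with anti-miR-223, and 8.88, 8.86, 8.55 and 8.53 with scramble. Replicates 1, 3 and 4 of pre-miR-223 were below all arrays of scramble. In a fit of every named cluster, added after the data were seen, it differed by -0.46 (95% CI -0.83 to -0.10) for pre-miR-223 versus scramble and by -0.42 (-0.79 to -0.06) for pre-miR-223 versus anti-miR-223, and neither passed (limma adjusted p = 0.880 and 0.932). For anti-miR-223 versus scramble it differed by -0.04 (-0.41 to 0.33).

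The cluster listed for H2-D1 and H2-Q2, both class I heavy chains, lay between 2.44 and 2.84 with pre-miR-223, 2.36 and 2.75 with anti-miR-223, and 2.59 and 2.80 with scramble, and its difference from scramble was -0.07 (-0.32 to 0.18) with pre-miR-223 and -0.16 (-0.41 to 0.09) with anti-miR-223. A cluster listed for Tapbp and Zbtb22 was higher by 0.43 (-0.10 to 0.96) for pre-miR-223 versus scramble, the direction of the dim Tapbp row, and did not pass (limma adjusted p = 0.880).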
